A study of Mus musculus with 44 samples.

Results

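The genes described here are 33 genes of glycolysis and of the response to low oxygen, measured in cultured mouse CD4 T cells with different alleles of the microRNA gene miR-150. They were chosen by symbol from the 55416 genes of the count table: 4 transporters of glucose and lactate, 10 genes of upper glycolysis, 8 of lower glycolysis and its pyruvate branch, 3 of oxygen sensing and 8 genes known to be induced by hypoxia. All 33 were found and all 33 passed the filter on low counts. Aldoa stood in 2 rows, of which the row with the higher total was used. Naive CD4 T cells were sorted from spleens of C57BL/6NTac mice that were wild type (WT), knockout (KO) or knock-in (KI) for miR-150. The labels do not say how the KO and KI alleles were made, what the knock-in carries, or the mice's age. All cells were stimulated for 3 days with plate-bound antibody to CD3 and soluble antibody to CD28, at 150000 cells per well. Th0 cultures received nothing more, Th1 cultures also anti-interleukin-4 together with interleukin-12, and Treg cultures anti-interferon-gamma together with TGF-beta 1. Each culture and genotype had 5 libraries except Th0 KI, which had 4 (numbers 1, 3, 4 and 5), for 44 in all. The labels do not say that libraries of a group came from separate mice, so p-values measure the spread between libraries, which may be technical. In the main fit this spread within groups was pooled over all 44 libraries, so it is not that of the compared groups alone.

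Glycolysis turns glucose into pyruvate. Slc2a1 and Slc2a3 encode glucose transporters, the hexokinases Hk1 and Hk2 trap glucose in the cell by phosphorylation, phosphofructokinase (Pfkl, Pfkm, Pfkp) commits it to the pathway, and Ldha encodes a lactate dehydrogenase subunit whose product leaves through the carriers encoded by Slc16a1 and Slc16a3. T cells stimulated through their receptor are known to raise this pathway even where oxygen is present, and induced regulatory T cells are known to rely on it less than effector cells. Hif1a encodes the oxygen-regulated subunit of the transcription factor HIF-1, which induces many of these genes, and the prolyl hydroxylases encoded by Egln1 and Egln3 mark that subunit for destruction when oxygen is at hand. HIF-1 is controlled largely at the level of protein, which was not measured here.

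Total counts ran from 60815821 to 137415965 per library, and 21873 genes were tested. Levels are given as CPM, counts scaled to library size with TMM factors, and log2 fold changes are given with their standard error (SE). A gene is called when its p-value from edgeR's quasi-likelihood test, adjusted by the Benjamini-Hochberg method over all genes tested in a contrast, is under 0.05. The row for the miR-150 hairpin held 6 counts over 15 WT libraries, 0 over 15 KO libraries and 7 over 14 KI libraries. At most 2 were in any library, so it could not check the labels. Cd4 was present in every library, from 169 to 697 CPM. Libraries numbered WT 4, KO 2 and KI 3 stood apart in the Treg cultures: Foxp3, which defines regulatory T cells, was at 47.7, 77.4 and 61.97 CPM in them, and Cd8a, a marker of CD8 T cells, at 443, 73.1 and 318 CPM. The summed markers of B cells reached 831 CPM (Th0 KI 3), and those of myeloid cells, NK cells and erythroid cells at most 56.3, 18.5 and 8.67 CPM in any library. Of the myeloid markers, S100a8 was at 0 in every Th0 KO library, S100a9 in every Th0 KI library, and both in every Th1 KI library. Their part in the results was not tested. Counts of called genes are also given without the numbers WT 4, KO 2 and KI 3. Treg WT 3 stayed in them, though its Foxp3, at 159 CPM, was below the 534, 519 and 596 CPM of Treg WT 1, 2 and 5.

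**Figure D1:**
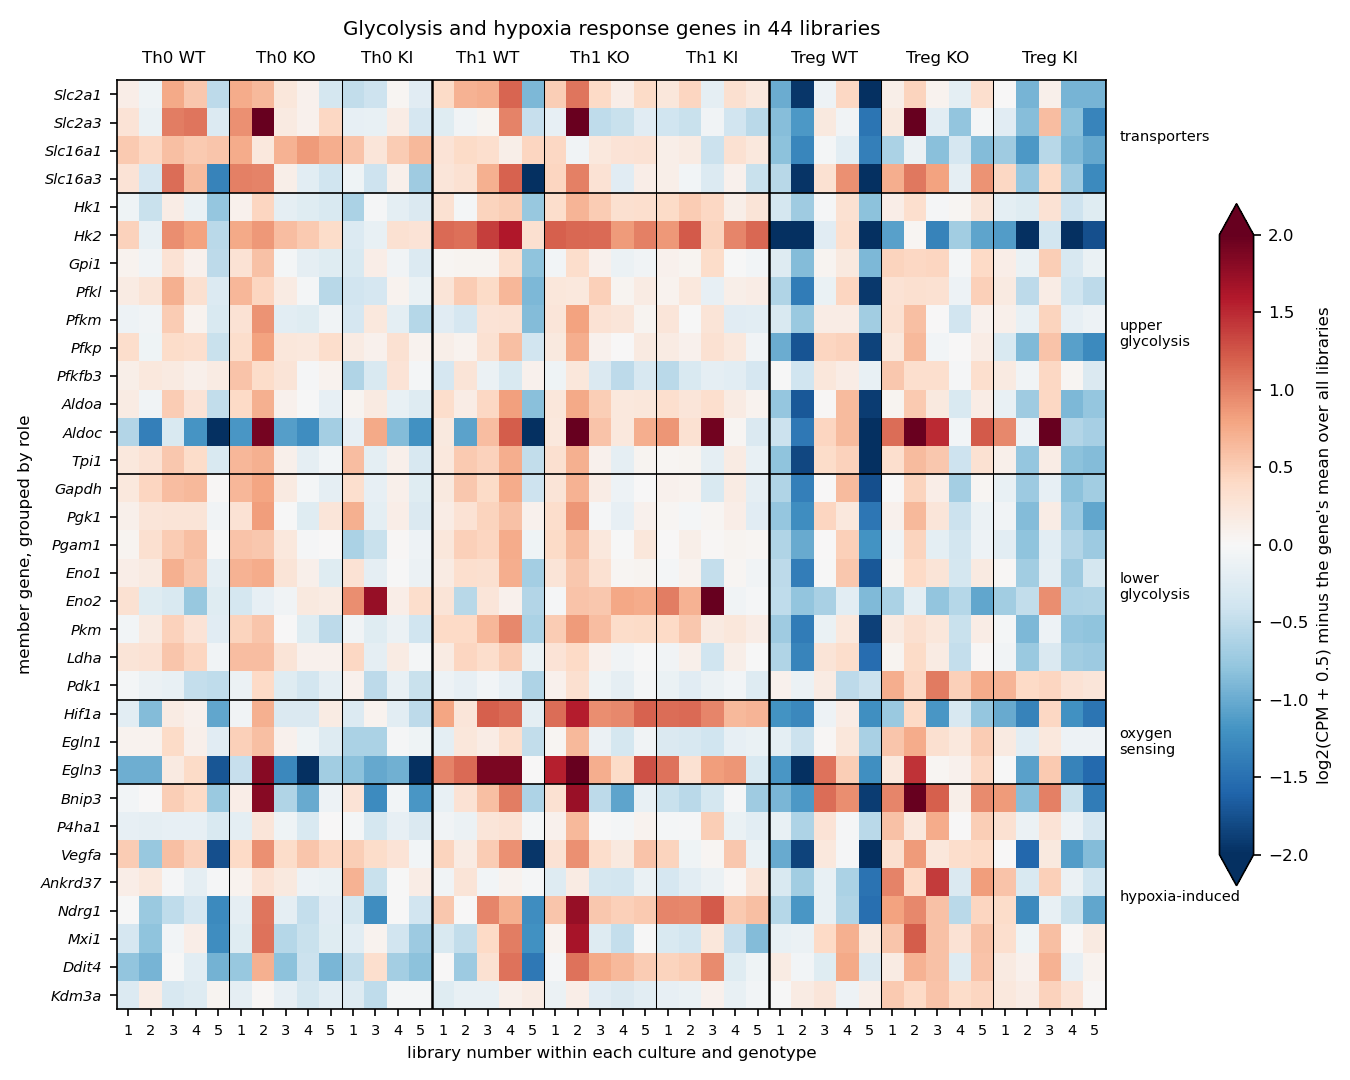
Heat map of log2(CPM + 0.5) of each of the 33 genes (rows, grouped by role) in each of the 44 libraries (columns, by culture, genotype and number), as the difference from the gene's mean over all libraries, with colours capped at 2 either way. WT 5 is low for most genes in all 3 cultures, KO 2 is high, and Hk2 and Slc16a1 are low across the Treg columns.

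Levels can be compared between genes only per length, here as CPM per kilobase of merged exons. In Th0 WT the highest were Gapdh at 933 ± 170.4, Ldha at 832 ± 129.5 and Pgk1 at 776 ± 73.7 CPM per kilobase (SD, n = 5). These neighbours in the order did not differ beyond their spread, and the order depends on the length used: per kilobase of the longest transcript, Ldha was at 1518 ± 236, Eno1 at 1239 ± 301 and Gapdh at 1173 ± 214 CPM. Enolase was almost all Eno1, whose protein makes phosphoenolpyruvate, at 467 ± 114, against 1.08 ± 0.321 CPM per kilobase for Eno2. Eno1 and Pgam1 have near-identical copies in the table, so their values are uncertain. Together the 33 genes took 1.41 to 2.28% of all counts in Th0 WT libraries, 1.26 to 2.71% in Th1 WT and 0.566 to 2.19% in Treg WT.

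The make-up of some enzyme families differed between cultures. Hk1 made up 35.2 ± 4.85% of the length-scaled hexokinase level (Hk1 plus Hk2) in Th0 WT, 28.2 ± 1.87% in Th1 WT and 66.7 ± 19.4% in Treg WT (SD, n = 5 each). Its range in Treg WT, 43.9 to 84.5%, lay above that in Th0 WT, 29.2 to 40.5%. The same order of Treg above Th0 held in KO, with 33.4 ± 2.15% in Th0 and 60.9 ± 7.44% in Treg, and in KI, with 38.95 ± 5.35% and 65.9 ± 7.599%. Scaled to the longest transcript instead, the WT shares were 49.9 ± 5.34% in Th0 and 77.4 ± 15.3% in Treg, so which hexokinase leads in Th0 depends on the length used. Between the 2 prolyl hydroxylases, Egln3 made up 44.3 ± 12.2% in Th0 WT, 74.04 ± 6.61% in Th1 WT and 49.2 ± 18.3% in Treg WT. Its Th1 range of 64.7 to 81.2% did not overlap the Th0 range of 31.1 to 61.1% in WT. In KO the Th1 range of 68.3 to 86.0% overlapped that of Th0, 23.8 to 75.1%, and in KI 53.5 to 76.98% in Th1 lay just above 18.4 to 53.04% in Th0.

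HIF-1 binds short sites whose core reads ACGTG or GCGTG. RefSeq promoter windows of 300 bases, from 250 before to 50 after the start, on GRCm38.p6, were found for 31 of the 33 genes, all but Slc2a3 and Ndrg1. ACGTG or GCGTG on either strand stood in the first listed window of 23 of these 31 (74.2%), against 43.8% of 27025 genes with a window and 58.8% of the 12845 of these that were tested here. ACGTG alone stood in 58.1% of the members' windows, against 19.7% and 24.4%. CACGTG, an E-box that also contains ACGTG on both strands, stood in 16.1%, against 7.24% and 9.35%. A match describes the letters and does not show binding. Stretches of 60 bases, 5′ to 3′ on the gene's strand, are shown for genes whose levels the results below turn on, with the motif on either strand in capitals: Slc16a1 and Hk2, which were lower in Treg cultures of every genotype, Ldha, and Pdk1, Kdm3a and Ankrd37, which were higher in Treg KO than in Th0 KO.
Slc16a1: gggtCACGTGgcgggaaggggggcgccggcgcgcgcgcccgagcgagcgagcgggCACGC
Hk2: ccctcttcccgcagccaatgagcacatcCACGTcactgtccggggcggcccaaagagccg
Ldha: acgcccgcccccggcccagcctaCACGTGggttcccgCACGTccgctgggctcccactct
Pdk1: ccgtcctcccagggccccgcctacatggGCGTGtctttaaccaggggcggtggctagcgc
Kdm3a: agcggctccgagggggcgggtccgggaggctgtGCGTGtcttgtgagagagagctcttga
Ankrd37: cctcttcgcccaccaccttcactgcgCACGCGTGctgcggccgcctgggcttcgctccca
The Slc16a1 stretch lies at chr3:104638460-104638519 on the plus strand and holds an E-box and a further match. That of Hk2, with a single match, lies at chr6:82774475-82774534 on the minus strand. The Ldha stretch at chr7:46845733-46845792, plus strand, likewise holds both. Pdk1 shows a GCGTG at chr2:71873118-71873177, plus strand, and Ankrd37 an overlapping pair of motifs at chr8:45999972-46000031, minus strand. Kdm3a had no match in 2 of its 3 windows, and the stretch at chr6:71632918-71632977, minus strand, is from the other window.

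Treg cultures were compared with Th0 cultures to ask how these genes stand after regulatory polarisation. In WT, 9 of the 33 genes fell and 0 rose. They were Hk2, Slc16a1, Pfkl, Gapdh, Pkm, Eno1, Ldha, Ankrd37 and Pgam1. In KO 2 fell (Hk2, Slc16a1) and 4 rose (Pdk1, Ankrd37, Kdm3a, P4ha1), and in KI 3 fell (Hk2, Slc16a1, Eno2) and 2 rose (Pdk1, Kdm3a). Of all genes tested, 33.1% were called in WT (17.4% higher, 15.7% lower), 33% in KO (17.1% and 15.9%) and 33.6% in KI (16.7% and 16.9%). The share of members called was thus near or below the background, except that more of them fell in WT. The median log2 fold change of the 33 genes was -0.53 in WT, 0.03 in KO and -0.06 in KI, where that of all genes was 0.02, 0.04 and -0.01. In these bulk samples, fewer cells of a type and less RNA per cell cannot be told apart.

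Markers of other cell types were summed in the same libraries. The sum of 9 myeloid and dendritic cell markers ran from 1.71 to 8.75 CPM in Th0 WT and from 10.1 to 56.3 CPM in Treg WT, without overlap. It ran from 1.70 to 4.28 CPM in Th0 KO and from 7.34 to 23.97 CPM in Treg KO, again without overlap, and from 4.23 to 13.8 CPM in Th0 KI and 10.5 to 40.8 CPM in Treg KI, which overlapped. In Th1 it ran from 2.16 to 22.96 CPM in WT, 2.11 to 9.32 CPM in KO and 3.41 to 24.2 CPM in KI. The sum of 5 B cell markers had medians of 169, 51.2 and 249 CPM in Th0 WT, KO and KI and 57.8, 27.2 and 127.4 CPM in Treg, with overlapping ranges. The part of these markers in the results was not tested.

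**Figure D2:**
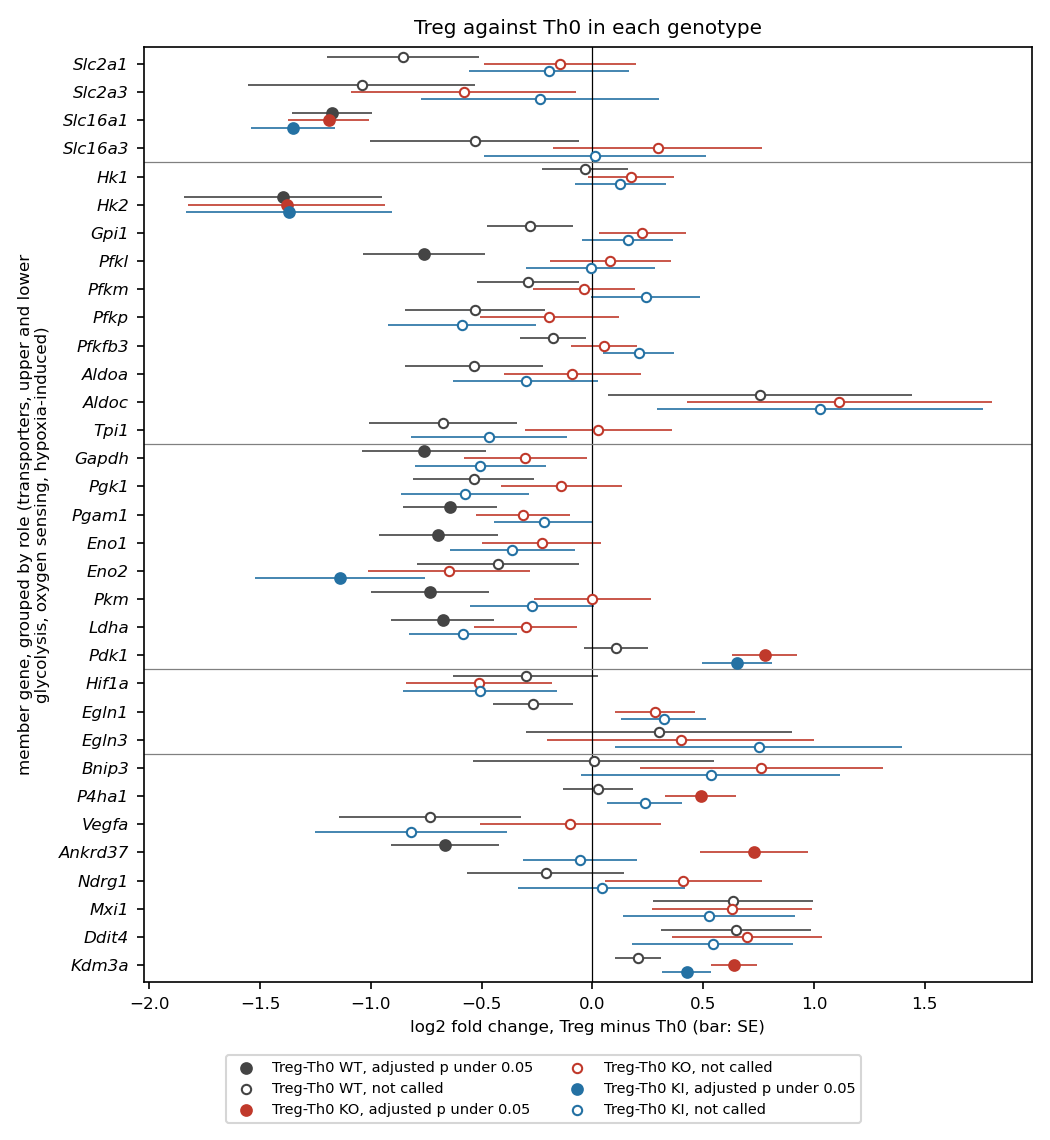
Log2 fold change of Treg minus Th0 with its SE for each of the 33 genes (vertical axis, grouped by role) in WT, KO and KI, with filled points for called genes. Hk2 and Slc16a1 lie left of 0 in all 3 genotypes, and most other WT points lie left of the KO points.

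Among the transporters, Slc16a1 (chromosome 3, 104638668 to 104658462, plus strand, in the GENCODE annotation of GRCm38), a carrier of lactate and pyruvate, had the clearest difference. Its level in Th0 WT 1 to 5 was 305, 284, 321, 306 and 311 CPM, and in Treg WT 1 to 5 119.3, 85.5, 206, 183 and 82.2 CPM. Every Treg WT library lay below every Th0 WT library. By edgeR the log2 fold change was -1.18 ± 0.18 (SE; adjusted p = 5.82e-06). In KO it was -1.19 ± 0.18 (adjusted p = 3.67e-06) and in KI -1.35 ± 0.19 (adjusted p = 1.52e-06). The KO libraries stood at 355, 246, 342, 384 and 351 CPM in Th0 and 136.3, 197, 118.7, 167 and 115.9 CPM in Treg, and the KI libraries at 316, 252, 301 and 335 and 130.1, 95.7, 144.5, 114.8 and 104.4 CPM, also with no overlap. Slc16a1 was called in every alternative tried in all 3 genotypes.

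Slc2a1 (chromosome 4, 119108711 to 119137983, plus strand), the glucose transporter GLUT1, stood at 104.9, 90.3, 162, 138.9 and 65.97 CPM in Th0 WT 1 to 5 and at 47.8, 24.3, 89.0, 128.1 and 21.5 CPM in Treg WT 1 to 5. Libraries 1, 2 and 5 of Treg WT were below all Th0 WT libraries, while 3 and 4 lay within their range. Its log2 fold change of -0.86 ± 0.34 missed the threshold (adjusted p = 0.0522). With same-numbered libraries as a block it was -1.09 and passed (adjusted p = 0.000855). It also passed without WT 4, KO 2 and KI 3 (-1.20, adjusted p = 0.00722). In KO, Slc2a1 was at 160.0, 150.01, 111.8, 100.9 and 74.4 CPM in Th0 and 103.5, 130.9, 100.7, 83.3 and 120.9 CPM in Treg, and in KI at 67.95, 71.6, 98.3 and 81.1 and 96.3, 49.6, 102.2, 49.8 and 50.1 CPM. The groups overlapped in both, and the log2 fold changes of -0.15 ± 0.34 in KO and -0.20 ± 0.36 in KI were not called. The second glucose transporter gene Slc2a3 was at -1.04, -0.58 and -0.24 in WT, KO and KI, and the lactate exporter gene Slc16a3 at -0.53, 0.29 and 0.01, none of them called without the block. With it Slc2a3 fell in WT at -1.06 (adjusted p = 5.21e-05), as did Slc16a3 at -0.77 (adjusted p = 0.0196). Slc2a3 also fell with it in KO, at -0.60 (adjusted p = 0.00935). For Treg and Th0 in KO the numbers missed the rule for pairs given below. Values with the block there are not read as paired.

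In upper glycolysis, Hk2 (chromosome 6, 82725025 to 82774454, minus strand), the inducible hexokinase, had the largest fall of any member in each genotype. Its level was 243, 159.7, 336, 310.3 and 121.1 CPM in Th0 WT 1 to 5 and 37.5, 18.3, 150.3, 223 and 14.7 CPM in Treg WT 1 to 5. Libraries 1, 2 and 5 of Treg WT stood far below Th0, and 3 and 4 overlapped it. It changed by -1.40 ± 0.45 on the log2 scale (adjusted p = 0.0138), and the call was lost without Treg WT 1 or when only these 10 libraries were fitted. In KO it stood at 299, 323, 271, 254 and 227 CPM in Th0 and 82.95, 181, 69.9, 109.3 and 84.8 CPM in Treg. The KO groups did not overlap, with a log2 fold change of -1.38 ± 0.45 (adjusted p = 0.0149). In KI the groups did not overlap either, at 146, 159, 219 and 213 CPM in Th0 and 81.3, 44.2, 137.003, 41.9 and 52.2 CPM in Treg, a log2 fold change of -1.37 ± 0.46 (adjusted p = 0.0202). The KI call was lost without Treg KI 2 or without Treg KI 4. Hk1, the constitutive hexokinase, was at -0.03, 0.17 and 0.13, none of them called.

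Pfkl, the liver-type phosphofructokinase subunit, was the other gene of upper glycolysis that fell in WT. It stood at 164, 176, 241, 182 and 120.6 CPM in Th0 WT 1 to 5 and 96.6, 55.3, 133.04, 198 and 38.3 CPM in Treg WT 1 to 5, with Treg WT 3 and 4 inside the Th0 range. The log2 fold change was -0.76 ± 0.28 (adjusted p = 0.0304), against 0.08 in KO and -0.01 in KI, which were not called. Without the block, the other 8 genes of upper glycolysis were not called in any genotype. With it, 5 of them fell in WT: Tpi1 at -0.96 (adjusted p = 0.00323), Aldoa at -0.79 (adjusted p = 0.0018), Pfkp at -0.78 (adjusted p = 0.00908), Pfkm at -0.32 and Gpi1 at -0.32. In KI, Pfkp fell with the block at -0.68 (adjusted p = 0.033) and Aldoc rose at 0.88 (adjusted p = 0.0298). Aldoc also rose with it in KO, at 1.66 (adjusted p = 8.74e-05), where the numbers were not read as pairs. Exons of Pfkm overlap Senp1, and those of Pfkp overlap Pitrm1, on the other strand. Senp1 averaged 153 CPM in Treg WT, against at most 29.4 CPM for Pfkm. Senp1 changed by -0.57, -0.38 and -0.53 in WT, KO and KI when no block was used. Pitrm1 changed by -0.72, -0.81 and -0.55, and each of these values was called. Whether reads of these neighbours entered the Pfkm and Pfkp counts was not tested. Without the block, the WT values of the 10 ranged from -1.40 for Hk2 to 0.76 for Aldoc, the minor aldolase of these cells, with 9 of 10 below 0.

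In lower glycolysis, 5 of 8 genes fell in WT: Gapdh, Pgam1, Eno1, Pkm (pyruvate kinase) and Ldha, with log2 fold changes between -0.76 and -0.64. Gapdh, the dehydrogenase at the middle of the pathway, stood at 3370.2, 3906, 4482, 4581 and 2946 CPM in Th0 WT 1 to 5 and 1928, 1128, 2937, 4535 and 863 CPM in Treg WT 1 to 5. Treg WT 4 lay near the top of the Th0 range, and the other Treg WT libraries below it. Its log2 fold change was -0.76 ± 0.28 (adjusted p = 0.0338). Ldha (chromosome 7, 46841475 to 46855627, plus strand) stood at 2648, 2729, 3267, 3008 and 2125 CPM in Th0 WT 1 to 5 and 1459.6, 894, 2670.0, 2824 and 770.4 CPM in Treg WT 1 to 5. Treg WT 1, 2 and 5 lay below the Th0 libraries and 3 and 4 among them. Between them lay a log2 fold change of -0.68 ± 0.23 (adjusted p = 0.0217) in WT, -0.30 ± 0.23 in KO and -0.58 ± 0.24 (adjusted p = 0.0604) in KI. Its KO libraries stood at 3408, 3415, 2664, 2366 and 2367 CPM in Th0 and 2302, 2895, 2491, 1592 and 2256 CPM in Treg, and its KI libraries at 2948, 1969.7, 2481 and 2166 and 2108, 1323, 1822, 1379 and 1339 CPM, with overlap in both. With the block Ldha fell in KI at -0.57 (adjusted p = 0.0186), and Pgk1, a phosphoglycerate kinase gene, fell in WT at -0.69 (adjusted p = 0.00593) and in KI at -0.54 (adjusted p = 0.0378).

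Without Treg WT 5, all of these lower-glycolysis calls and that of Pfkl were lost, as they were without Treg WT 1 or Treg WT 2. Leaving out Th0 WT 3 lost all of them but Pgam1, and leaving out Th0 WT 4 lost all of them. Gapdh, Eno1 and Pkm were also lost without Th0 WT 2 and, like Ankrd37, with no filter on low counts. When only the 10 WT libraries were fitted, Slc16a1 was the 1 gene of the 9 still called.

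Pdk1 (chromosome 2, 71873224 to 71903858, plus strand), a kinase that keeps pyruvate out of the mitochondria by inhibiting pyruvate dehydrogenase, went the other way. It stood at 159, 225, 145.4, 133.4 and 151 CPM in Th0 KO 1 to 5 and 284, 229.5, 354, 239 and 288 CPM in Treg KO 1 to 5. The groups did not overlap, and the log2 fold change was 0.78 ± 0.15 (adjusted p = 7.48e-05). In KI it was 182, 119.8, 155 and 126.5 CPM in Th0 and 275, 226, 231, 210.2 and 203 CPM in Treg, again without overlap, a log2 fold change of 0.65 ± 0.16 (adjusted p = 0.00124). In WT the libraries overlapped, at 167, 158, 155, 122.6 and 120.05 CPM in Th0 and 182, 158, 193, 118.8 and 127.1 CPM in Treg, and the log2 fold change was 0.11 ± 0.15. Eno2, the minor enolase, fell in KI, from 11.8, 21.1, 6.54 and 7.72 CPM in Th0 to 3.47, 4.07, 11.8, 3.71 and 3.73 CPM in Treg, a log2 fold change of -1.14 ± 0.39 (adjusted p = 0.0198). Number 3 was the highest KI library in both cultures. The Eno2 call was lost without Th0 KI 3 and without Treg KI 1, 4 or 5. In KO, where the numbers were not read as pairs, Eno2 fell with the block at -0.64 (adjusted p = 0.0149). It also fell there without WT 4, KO 2 and KI 3, at -0.85 (adjusted p = 0.00835).

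Of the genes of oxygen sensing, none was called between Treg and Th0 without the block. Hif1a (chromosome 12, 73901375 to 73947530, plus strand) stood at 449.9, 288, 587, 556 and 255 CPM in Th0 WT 1 to 5 and 229, 213, 486, 579.6 and 224 CPM in Treg WT 1 to 5. The groups overlapped, with log2 fold changes of -0.30 ± 0.33 in WT, -0.51 ± 0.33 in KO and -0.51 ± 0.35 in KI. It stood at 313, 687, 232, 419.7 and 307 CPM in Treg KO 1 to 5 and 259, 207, 694, 225 and 189.6 CPM in Treg KI 1 to 5. The KI value passed with the block, at -0.63 (adjusted p = 0.0147), and without WT 4, KO 2 and KI 3, at -0.93 (adjusted p = 0.0112). The KO value also passed with the block, at -0.55 (adjusted p = 0.0198). With the block Egln1 rose in KI at 0.37 (adjusted p = 0.029) and in KO at 0.31 (adjusted p = 0.0495). Egln3 rose with it in KO, at 0.99 (adjusted p = 0.00946). For all of these KO values the numbers were not read as pairs.

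Among the hypoxia-induced genes, Kdm3a (chromosome 6, 71588972 to 71632990, minus strand), a histone H3 lysine 9 demethylase, stood at 112.6, 129.8, 114, 100.1 and 109.9 CPM in Th0 KO 1 to 5 and 185, 169, 190.7, 164 and 172 CPM in Treg KO 1 to 5. All Treg KO libraries were above all Th0 KO libraries. In KI it stood at 106.4, 89.95, 124.9 and 124.8 CPM in Th0 and 148, 141.7, 176, 154 and 129.6 CPM in Treg. This gave a log2 fold change of 0.64 ± 0.10 (adjusted p = 9.49e-06) in KO and 0.43 ± 0.11 (adjusted p = 0.00268) in KI, where the call was lost without WT 4, KO 2 and KI 3 (0.26, adjusted p = 0.0556). In WT it was 0.20 ± 0.10 and was not called. P4ha1, a collagen prolyl hydroxylase subunit, stood at 83.3, 113.4, 90.4, 77.6 and 96.1 CPM in Th0 KO 1 to 5 and 143.4, 110.5, 161, 96.8 and 135.1 CPM in Treg KO 1 to 5. Those groups overlapped, and the log2 fold change of 0.49 ± 0.16 (adjusted p = 0.0156) was not called without Th0 KO 4 or without Treg KO 3.

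Ankrd37 (chromosome 8, 45996902 to 46005707, minus strand), an ankyrin repeat gene known as a HIF-1 target, was called in opposite directions in WT and KO. In WT it stood at 8.43, 8.92, 7.46, 6.67 and 7.44 CPM in Th0 and 6.08, 4.49, 6.78, 4.74 and 2.42 CPM in Treg, a log2 fold change of -0.67 ± 0.24 (adjusted p = 0.0327). In KO it stood at 8.06, 9.41, 8.75, 7.10 and 6.90 CPM in Th0 and 15.6, 10.2, 20.8, 6.16 and 13.96 CPM in Treg, a log2 fold change of 0.73 ± 0.24 (adjusted p = 0.0186). Treg KO 4 alone of its group lay below the Th0 KO libraries, and Treg WT 3 alone of its group lay inside the Th0 WT range. The difference between the genotypes' effects was 1.40 ± 0.35 and did not pass over all genes (adjusted p = 0.414). The WT call was lost without Th0 WT 1, Th0 WT 2, Treg WT 2 or Treg WT 5, and the KO call without Th0 KO 4, Th0 KO 5 or Treg KO 3. Its exons overlap Ufsp2 and Lrp2bp on the other strand, and no source used here says whether strand was used in counting. The other 5 genes (Bnip3, Vegfa, Ndrg1, Mxi1 and Ddit4) were not called in any genotype without the block, at -0.82 for Vegfa in KI to 0.76 for Bnip3 in KO. With it Vegfa fell in WT at -0.75 (adjusted p = 0.00668) and in KI at -0.77 (adjusted p = 0.00811). Mxi1, which encodes an antagonist of Myc, rose in WT at 0.71 (adjusted p = 0.00242) and in KI at 0.58 (adjusted p = 0.0179). Ddit4, an inhibitor of mTOR signalling, rose in WT at 0.65 (adjusted p = 0.0166). In KO the numbers were not read as pairs. The block gave rises there of Mxi1 at 0.77 (adjusted p = 0.00109), Ddit4 at 0.80 (adjusted p = 0.00426) and Bnip3 at 1.04 (adjusted p = 0.0095). Without WT 4, KO 2 and KI 3, Mxi1 and Ddit4 also rose in KO, at 0.88 (adjusted p = 0.00432) and 1.02 (adjusted p = 0.00255).

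Same-numbered libraries of a genotype deviated together between cultures. For Treg and Th0 in KO the correlation of their deviations from group means averaged 0.265, against -0.059 for other numbers. Its lowest value there, 0.00433, missed the rule of over 0.1 for every pair. With the number as a block, 21 of 33 genes were called in WT (2 higher, 19 lower) and 13 in KI (5 and 8). These included all those called without it. Of all genes, the block called 40.4% in WT (20.1% higher, 20.3% lower) and 39.3% in KI (19.6% and 19.7%), so the share of members was near that of all genes in KI. Without WT 4, KO 2 and KI 3, 17 were called in WT (1 higher, 16 lower), 10 in KO (7 and 3) and 8 in KI (1 and 7), where 37.4%, 38.4% and 36.7% of all genes were called. The WT count of 9 became 2 without Treg WT 1, Treg WT 2 or Treg WT 5, 14 without Treg WT 3 or Treg WT 4, 4 without Th0 WT 3 and 3 without Th0 WT 4. The KO count of 6 became 11 without Th0 KO 2, and the KI count of 5 became 9 without Treg KI 3 and 3 without Treg KI 4.

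**Figure D3:**
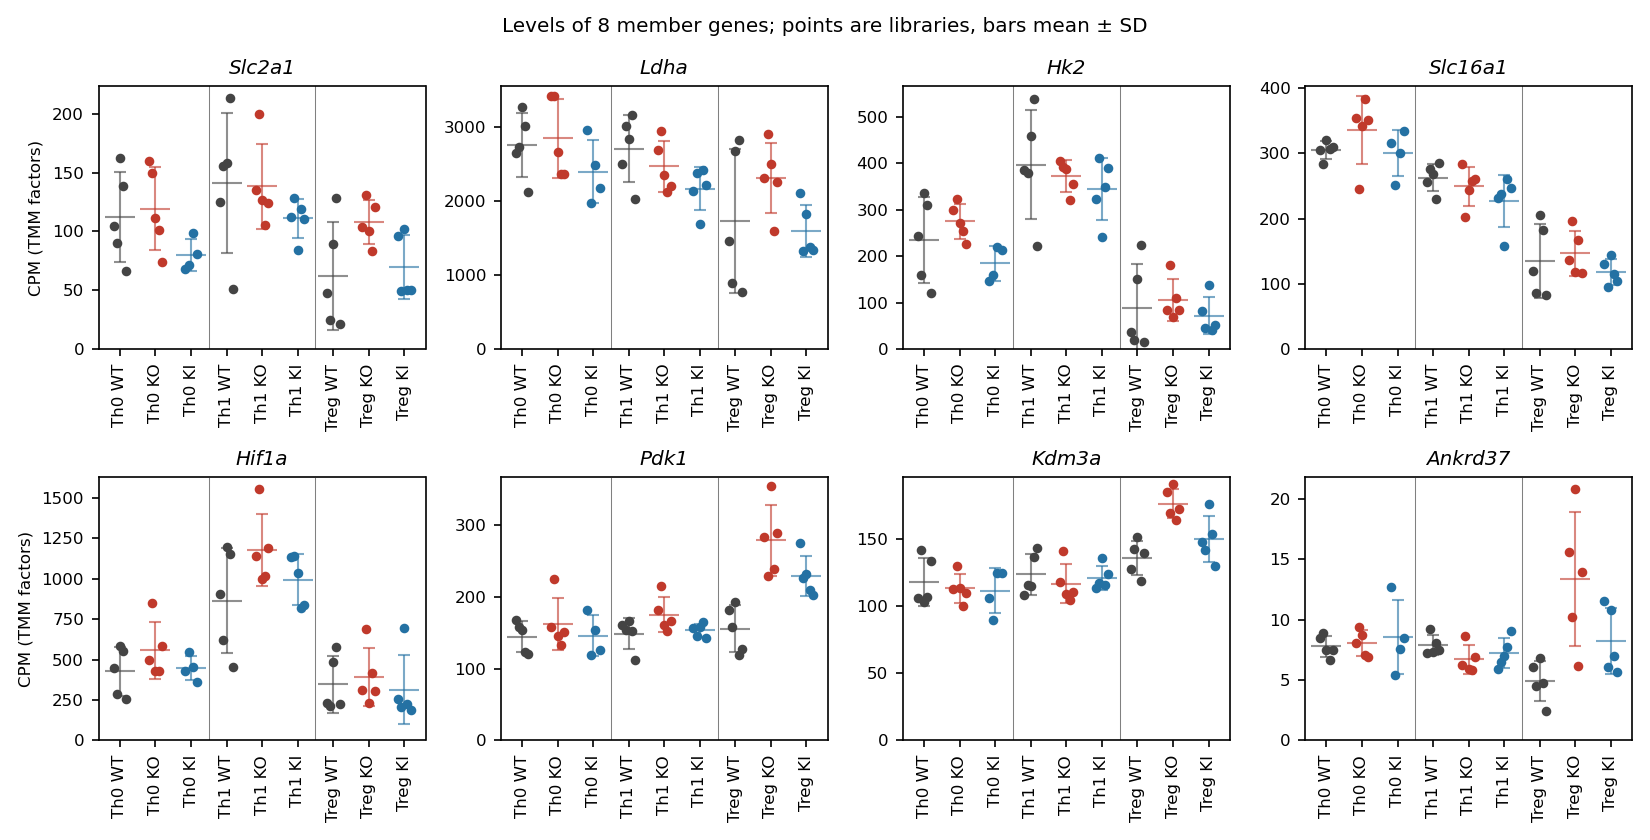
Levels in CPM (vertical axes, from 0) of 8 genes in each library (points) by culture and genotype, with mean ± SD. Slc16a1 is lower in every Treg library than in any Th0 library of its genotype, and Hif1a stands highest in Th1 cultures of each genotype.

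Few of these genes were called between Th1 and Th0 cultures. In WT none of 33 was, with 3 at an unadjusted p under 0.05 and 1 called by DESeq2. In KO 1 rose and in KI 2 rose. In WT, KO and KI, 3.04%, 9.51% and 5.92% of all genes were called (14.7% of all genes had an unadjusted p under 0.05 in WT). By direction, 2.22%, 5.33% and 2.98% of all genes rose and 0.818%, 4.18% and 2.94% fell. The median log2 fold change was 0.10 in WT, 0.04 in KO and 0.15 in KI. The gene called in KO and KI was Hif1a. It stood at 499, 854, 428, 427 and 584 CPM in Th0 KO 1 to 5 and 1139, 1554, 1002, 1015 and 1188 CPM in Th1 KO 1 to 5. The groups did not overlap, and the log2 fold change was 1.08 ± 0.33 (adjusted p = 0.0328). In KI it was 1.15 ± 0.36 (adjusted p = 0.0461), from 431, 548, 452 and 363 CPM in Th0 to 1136, 1144, 1033, 821 and 839 CPM in Th1, without overlap. In WT it stood at 908, 619.8, 1196, 1151 and 455 CPM in Th1 WT 1 to 5, which overlapped Th0, and its log2 fold change of 1.02 ± 0.33 missed the threshold (adjusted p = 0.0882). Every WT number was higher in Th1 than in Th0, and with the block the WT value was 1.01 (adjusted p = 0.000847). Without WT 4, KO 2 and KI 3 it also passed, at 1.03 (adjusted p = 0.0277). The KO call was lost without Th0 KO 1, 3, 4 or 5 or Th1 KO 2 or 5, and the KI call without Th0 KI 1, 4 or 5 or Th1 KI 1, 2, 3 or 5. Both were also lost with no filter on low counts. Exons of Hif1a overlap Gm15283 and Gm49321.

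Ndrg1, a stress-response gene, stood at 37.4, 19.9, 47.6 and 36.7 CPM in Th0 KI and 94.5, 93.9, 112.5, 69.4 and 73.4 CPM in Th1 KI 1 to 5, without overlap. Its log2 fold change was 1.33 ± 0.39 (adjusted p = 0.0346), and it did not pass without WT 4, KO 2 and KI 3 (1.05, adjusted p = 0.103), with no filter on low counts, or without Th0 KI 1, 3 or 5 or Th1 KI 1, 2 or 3. Egln3, which encodes a HIF prolyl hydroxylase, had larger fold changes that were not called: 1.75 ± 0.62 in WT, 1.51 ± 0.61 in KO and 1.86 ± 0.67 in KI. It stood at 34.4, 34.4, 77.4, 89.1 and 20.5 CPM in Th0 WT 1 to 5 and 135.7, 150.2, 252, 252 and 68.9 CPM in Th1 WT 1 to 5. Every WT number rose in level from Th0 to Th1 while the numbers themselves differed widely, and with the block Egln3 was called in all 3 genotypes, at 1.84 (adjusted p = 0.000185), 1.86 (adjusted p = 8.95e-05) and 2.01 (adjusted p = 0.000235). Slc2a1 was at 0.32, 0.21 and 0.48 and Ldha at -0.03, -0.21 and -0.15 in WT, KO and KI, none of them called. In Th1 WT, KO and KI 1 to 5, Slc2a1 stood at 124.96, 156, 159, 214 and 51.2, at 135.2, 200.2, 126.7, 105.2 and 124.3 and at 112.3, 128.4, 84.2, 119.4 and 110.8 CPM. Ldha stood there at 2492, 3010.1, 2836, 3156 and 2029, at 2689.7, 2945, 2353, 2123 and 2205 and at 2129, 2378, 1680.3, 2412 and 2213 CPM. The Th1 libraries overlapped those of Th0 for both genes in each genotype.

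With the block, 3 genes were called in WT (Egln3, Hif1a and Ndrg1, all higher), 9 in KO (7 higher, 2 lower) and 6 in KI (all higher), where it called 7.15%, 18.2% and 10.9% of all genes. The WT count of 0 became 2 without Th1 WT 5. The KO count of 1 became 0 without Th0 KO 1, Th0 KO 3, Th0 KO 5 or Th1 KO 5, 2 without Th1 KO 1 and 6 without Th0 KO 2. The KI count of 2 became 0 without Th0 KI 1, Th0 KI 5 or Th1 KI 1, 2 or 3, and 1 without Th0 KI 3, Th0 KI 4 or Th1 KI 5.

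Between the polarised cultures, Treg against Th1, 10 genes fell in WT, 4 fell and 4 rose in KO, and 7 fell and 3 rose in KI, where 30.8%, 30% and 32.8% of all genes were called (15.6%, 15% and 17% higher, 15.2%, 15% and 15.8% lower). The 3 that fell in every genotype were Hif1a, Hk2 and Slc16a1. Hif1a was at -1.32 in WT (adjusted p = 0.0024), -1.59 in KO (adjusted p = 0.000375) and -1.66 in KI (adjusted p = 0.000206). Hk2 was at -2.16, -1.82 and -2.27 and Slc16a1 at -0.96, -0.76 and -0.95. In WT the other 7 were Slc2a1, Ndrg1, Pkm, Pfkl, Pgam1, Ankrd37 and Ldha, and in KO Eno2 fell as well. In KI Eno2, Ndrg1, Pkm and Pgam1 fell besides the 3. Pdk1, Kdm3a and Pfkfb3 rose in KO and KI, and Ankrd37 in KO, at 0.99 ± 0.25 (adjusted p = 0.00193). Pdk1 was at 0.67 ± 0.15 in KO and 0.57 ± 0.15 in KI. Slc2a1 fell in WT by this contrast, at -1.18 ± 0.35 (adjusted p = 0.00847), and was at -0.36 in KO and -0.67 in KI. Pfkfb3, which makes the activator of phosphofructokinase, rose in KO (0.50, adjusted p = 0.0105) and KI (0.39, adjusted p = 0.0435), and was at 0.04 in WT. The KI call of Pfkfb3 was lost in 12 of 16 alternatives, DESeq2 among them, and the KO call without Th1 KO 4. The KI call of Pgam1 was lost in 9 of 16, that of Kdm3a in 5, that of Pkm in 3 and that of Eno2 in 2. In WT the calls of Pfkl and Ldha were each lost in 7 of 16, that of Ankrd37 in 5, among them without WT 4, KO 2 and KI 3 (-0.67, adjusted p = 0.0551), that of Ndrg1 in 4 and that of Pgam1 in 2. With only the 10 WT libraries fitted, all of these WT calls and those of Slc2a1, Hk2 and Pkm were lost, and Hif1a and Slc16a1 kept theirs. With the block 22 genes were called in WT (all lower), 15 in KO (8 higher, 7 lower) and 19 in KI (4 and 15), where it called 37.3%, 36.7% and 39.9% of all genes. Without WT 4, KO 2 and KI 3, 18 were called in WT, where 36.6% of all genes were. The WT count of 10 became 18 without Th1 WT 5 or Treg WT 4, 19 without Treg WT 3, 6 without Treg WT 2 and 5 without Treg WT 5, and the KI count of 10 became 6 without Treg KI 4.

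Genotypes were compared within each culture to ask whether the alleles of miR-150 changed these genes. In Treg cultures 2 of 33 genes, Pdk1 and Ankrd37, rose in KO against WT, where 0.169% of all genes were called (0.105% higher). For 32 of the 33 the log2 fold change was above 0 (48.8% of all genes), with a median of 0.60 against -0.01 for all genes, and 16 had an unadjusted p under 0.05 (10.1% of all genes did). By role, the median was 0.88 for the 4 transporters, 0.59 for upper glycolysis, 0.46 for lower glycolysis, 0.66 for oxygen sensing and 0.85 for the hypoxia-induced genes. The Treg libraries here are those compared with Th0 above. The summed markers of CD8 T cells ran from 7.68 to 589.8 CPM in Treg WT, from 12.7 to 93.6 CPM in Treg KO and from 19.04 to 406 CPM in Treg KI. Their part in the difference was not tested.

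**Figure D4:**
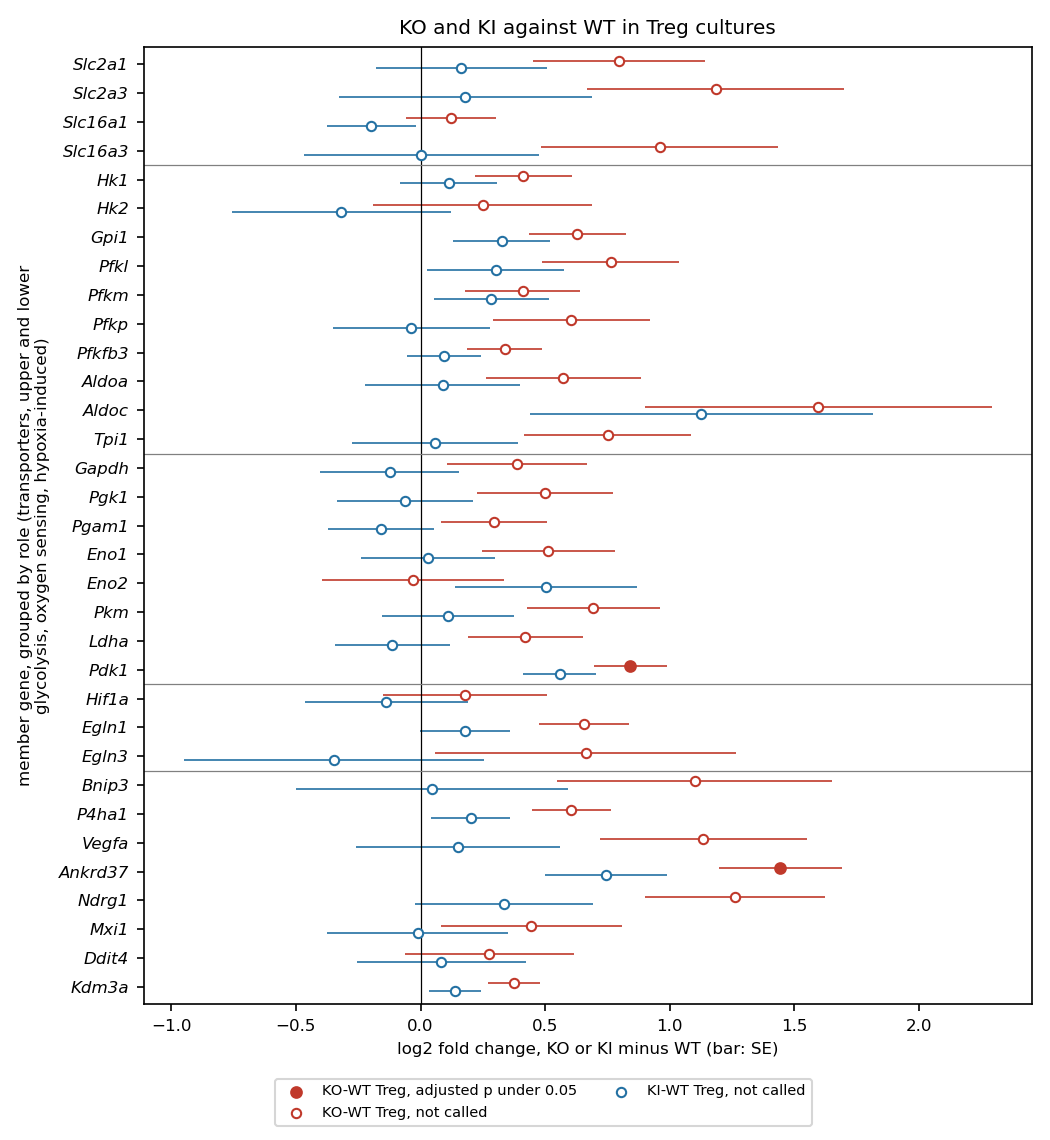
Log2 fold change with its SE for each of the 33 genes (vertical axis, grouped by role) in Treg cultures, for KO minus WT and KI minus WT, with filled points for called genes. All KO points but that of Eno2 lie right of 0, Pdk1 and Ankrd37 are called, and the KI points scatter around 0.

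Pdk1 stood at 182, 158, 193, 118.8 and 127.1 CPM in Treg WT 1 to 5 and at 284, 229.5, 354, 239 and 288 CPM in Treg KO 1 to 5. The groups did not overlap. By edgeR the log2 fold change was 0.84 ± 0.15 (adjusted p = 0.00553). Pdk1 was also the member with the smallest unadjusted p in KI against WT, at 0.56 ± 0.15, where the groups did not overlap but the adjusted p was 0.51. Ankrd37 stood at 6.08, 4.49, 6.78, 4.74 and 2.42 CPM in Treg WT 1 to 5 and 15.6, 10.2, 20.8, 6.16 and 13.96 CPM in Treg KO 1 to 5. Treg KO 4 fell below Treg WT 3, and the other KO libraries were above all WT libraries. On the log2 scale the difference was 1.44 ± 0.25 (adjusted p = 0.00553). The overlapping gene Ufsp2 on the other strand was at 0.17 (adjusted p = 0.8).

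Both calls were lost without Treg WT 5, when 0 members and 2 of all genes passed, and when only the 10 libraries compared were fitted. Without WT 4, KO 2 and KI 3 both kept their calls, at 0.79 for Pdk1 (adjusted p = 0.00478) and 1.49 for Ankrd37 (adjusted p = 0.00933), and 2 more passed: P4ha1 at 0.67 (adjusted p = 0.0279) and Egln1 at 0.67 (adjusted p = 0.0475). With all libraries P4ha1 was at 0.60 ± 0.16 (adjusted p = 0.109) and Egln1 at 0.66 ± 0.18 (adjusted p = 0.139).

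Besides Pdk1, Kdm3a and Vegfa had no overlap between Treg KO and Treg WT, as 0.677% of all genes did in that direction. Kdm3a stood at 127.3, 142.8, 151, 119.1 and 139.5 CPM in Treg WT 1 to 5 and 185, 169, 190.7, 164 and 172 CPM in Treg KO 1 to 5, a log2 fold change of 0.38 ± 0.10 that did not pass (adjusted p = 0.14). Vegfa, which encodes a growth factor of blood vessels, stood at 12.2, 6.57, 29.1, 24.7 and 5.42 CPM in Treg WT and 31.4, 45.6, 29.3, 32.1 and 32.9 CPM in Treg KO, at 1.13 ± 0.41 (adjusted p = 0.298). Slc2a1 was at 0.80 ± 0.34, with 103.5, 130.9, 100.7, 83.3 and 120.9 CPM in Treg KO 1 to 5 against the Treg WT values above. Ldha was at 0.42 ± 0.23, with 2302, 2895, 2491, 1592 and 2256 CPM in Treg KO 1 to 5. Neither was called (adjusted p = 0.411 and 0.563). Hif1a itself was at 0.18 ± 0.33 and Slc16a1 and Hk2, which were lower in Treg than in Th0 cultures of every genotype, at 0.12 ± 0.18 and 0.25 ± 0.44, none of them called.

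In KI against WT no member was called in Treg cultures, where 0% of all genes were, with 2 members at an unadjusted p under 0.05 (8.04% of all genes) and 0 called by DESeq2. The median log2 fold change was 0.09. In KI against KO no member was called either (0.0229% of all genes were), with 32 of 33 log2 fold changes below 0 (51.2% of all genes were above 0), a median of -0.48, 12 at an unadjusted p under 0.05 (7.78% of all genes) and 0 called by DESeq2. This comparison and that of KO against WT share the Treg KO libraries.

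In Th0 and Th1 cultures no member was called for any pair of genotypes by edgeR. Of all genes, 0% were called for KO against WT and for KI against KO in both cultures, 0.512% for KI against WT in Th0 and 0.0274% in Th1. In Th0, 0, 3 and 6 members had an unadjusted p under 0.05 for KO against WT, KI against WT and KI against KO (4.79%, 16.3% and 12.3% of all genes). In Th1 it was 1 each (9.15%, 15.1% and 5.93%). DESeq2 called 1, Eno2 in KI against WT in Th1 (1.24, adjusted p = 0.0496). By edgeR Eno2 was at 1.24 ± 0.37 there (adjusted p = 0.126), with 7.23, 3.88, 7.08, 6.31 and 3.78 CPM in Th1 WT 1 to 5 and 12.6, 9.93, 32.8, 5.65 and 5.86 CPM in Th1 KI 1 to 5, the highest in KI 3. Slc2a1, Ldha and Hif1a were at 0.09, 0.05 and 0.39 for KO against WT in Th0 and at -0.03, -0.13 and 0.45 in Th1. The median of the 33 genes was 0.14 for KO against WT in Th0 and 0.07 in Th1. A single member was called in KI against WT without Th0 KI 4 in Th0, and without Th1 KI 4 in Th1.

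Whether the KO effect differed between cultures was tested directly, and neither it nor the KI effect gave a called gene (0% of all genes in each of 4 tests). For KO, Treg minus Th0, 29 of 33 differences were above 0 (49.3% of all genes) with a median of 0.45, and 6 had an unadjusted p under 0.05 (5.25% of all genes). Here the values for Ankrd37 and Pdk1 were 1.40 ± 0.35 and 0.67 ± 0.21 (adjusted p = 0.414 and 0.595). For KI, Treg minus Th0, the median was 0.25 and 2 had an unadjusted p under 0.05 (6.22% of all genes). For Th1 minus Th0 the medians were -0.10 for KO and 0.05 for KI, each with 0 at an unadjusted p under 0.05 (1.76% and 3.26% of all genes). DESeq2 called 0 members in all 4.

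Many of the 33 genes were high or low in the same libraries, though no correlation between genes was computed. Slc16a1 went the other way in Th0 KO 2, where it was the lowest of its group at 246 CPM. As the mean over the genes of log2(CPM + 0.5) minus each gene's mean over all libraries, Treg WT 1 to 5 stood at -0.60, -1.17, 0.13, 0.25 and -1.38, Treg KO 1 to 5 at 0.24, 0.65, 0.24, -0.19 and 0.22 and Treg KI 1 to 5 at 0.02, -0.63, 0.32, -0.59 and -0.69. Treg WT had both the lowest libraries, 5 and 2, and a pair, 3 and 4, within the range of the KO libraries. Foxp3 in the same libraries was 534, 519, 159, 47.7 and 596 CPM in WT, 419, 77.4, 376, 411 and 431 CPM in KO and 479, 524, 61.97, 559 and 558 CPM in KI. The 6 Treg libraries highest in Foxp3 were the 6 with the lowest means, and the 4 lowest in Foxp3 all stood above 0. The part of Foxp3 level in the genotype difference was not tested.

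**Figure D5:**
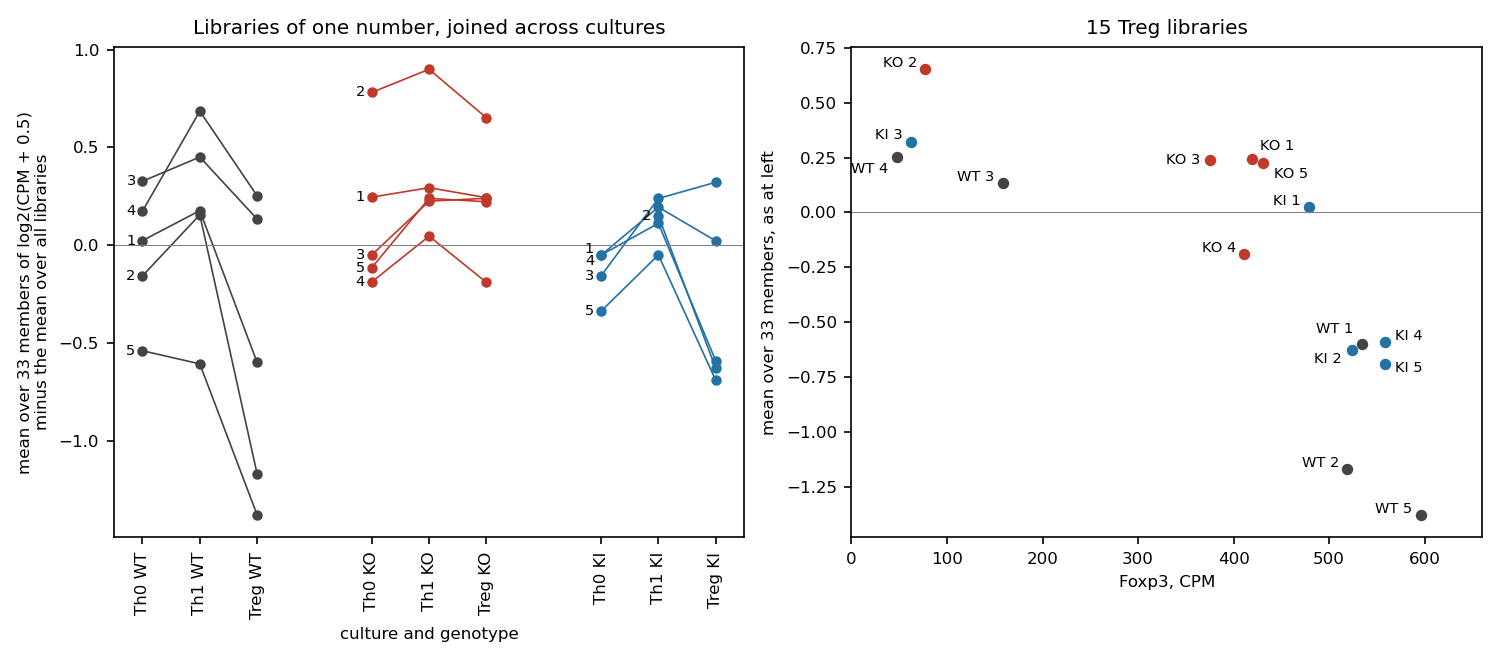
Left, the mean over the 33 genes of log2(CPM + 0.5) minus the mean over all libraries (vertical axis) for each library, joined by number across Th0, Th1 and Treg within WT, KO and KI. Right, the same mean in the 15 Treg libraries against Foxp3 in CPM (horizontal axis), where the 6 libraries highest in Foxp3 lie lowest.

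WT 5 and KO 2 kept their place across cultures. WT 5 was the lowest WT library for 28 of 33 genes in Th0, 28 in Th1 and 25 in Treg, at means of -0.54, -0.60 and -1.38. Its summed mitochondrial transcripts, used as a sign of RNA quality, were the highest of each WT group, at 36915, 37115 and 43141 CPM against group medians of 24977, 25741 and 30265. KO 2 was the highest KO library by the same mean in every culture, at 0.78 in Th0, 0.90 in Th1 and 0.65 in Treg. The part of RNA quality in these levels was not tested.

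Neighbouring pathways in Treg WT against Th0 WT are given from lists of other genes, where 17.4% of all genes rose and 15.7% fell. Of 21 tested glycolysis genes that are not among the 33, 2 rose and 5 fell, a share near that of all genes, with Gpd2, the mitochondrial glycerol phosphate dehydrogenase, at -1.11, Ldhb at -0.83, Tigar at -0.79 and the ADP-dependent glucokinase gene Adpgk at 1.01. Of 8 genes of the serine branch and one-carbon metabolism, which draws on a glycolytic intermediate, 7 fell in WT, 6 in KO and 6 in KI, and 0 rose (15.9% of all genes fell in KO and 16.9% in KI). Shmt1 was at -1.20, Mthfd1 at -0.99, Mthfd2 at -0.97 and Psat1 at -0.93 in WT. Of 8 genes of the pentose phosphate pathway 4 fell in WT (Pgd -0.77, G6pdx -0.57, Rpia -0.44 and Rpe -0.33) and 0 rose.

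Of 13 genes that control the entry of pyruvate into mitochondria, 2 rose and 5 fell, against the same 17.4% and 15.7% of all genes. Pdk2, another pyruvate dehydrogenase kinase, was at 2.58 and pyruvate carboxylase (Pcx) at 1.28, while the dehydrogenase subunits Dlat and Dld were at -0.70 and -0.62. The shares called among HIF regulators and upstream regulators were near or below the 33.1% of all genes called in either direction. Among 10 HIF subunits and regulators, 1 rose (Arnt, the partner of Hif1a, at 0.37) and 2 fell (Epas1, which encodes HIF-2 alpha, at -1.94 and Cited2 at -0.62). Of 31 other hypoxia-induced genes 4 rose and 10 fell, a larger share falling than the 15.7% of all genes. Rora at 2.04 and Ccng2 at 1.99 were among the 4 that rose, so they do not stand for the larger number that fell. They are named besides Tmem45a, which was near 0 counts in Treg WT. Of 15 upstream regulators, 2 rose (Foxo1, a factor of quiescent T cells, at 1.42, and Txnip, an inhibitor of glucose uptake, at 1.004) and 2 fell (Sesn2 at -0.95 and Myc, which drives glycolysis in activated T cells, at -0.70). In KO against WT in Treg cultures, Pgp, a phosphoglycolate phosphatase, was the only gene of these 7 lists that was called, at 0.67 (adjusted p = 0.0286), where 0.169% of all genes were called.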

How the data were processed

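Per the labels, libraries came from polyadenylated RNA with a stranded kit and were read from both ends (150 bp). The deposited table holds whole-number counts per gene, with 2 lane columns for each of 44 libraries, which were summed. Per the file headers, reads were aligned with STAR. No source used here names the counting tool, its strand setting or versions. GRCh38 is the build in the submitters' processing notes, while the gene identifiers are those of mouse. All columns were mapped to a sample by the labels. Of 55416 gene identifiers, 1492 had no symbol and stayed in the tests. The authors' normalised table was not used.

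Counts were fitted with edgeR 4.0.16 in R 4.3.3 (TMM, default filter by group, 1 model of 9 group means, quasi-likelihood test, 22 contrasts), with Benjamini-Hochberg adjustment over 21873 genes, and tested on simulated data first. The members and lists were chosen with earlier results of these data known. All members are accounted for. Members called between genotypes, up to 4 called each way in Treg or Th1 against Th0 in each genotype, and Hif1a, Slc2a1 and Ldha are given in full, with values per library in the groups where they were called. Up to 4 called genes per list are named, and some list genes are not reported here. Levels per length used merged exons of the mouse GENCODE release M21. Alternatives were other scaling, no filter, DESeq2 1.42.0, fewer groups, the library number as a block, leaving out libraries, transcript length and motif.

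Pairing by number was checked from the correlation of deviations from group means. It exceeded 0.1 for every pair in 8 of 9 culture comparisons (lowest 0.155) but not for Treg and Th0 in KO (lowest 0.00433) nor between genotypes. Libraries of a group differed by more than sampling noise (lowest median chi-square 4.36 over 86 pairs, where copies would give 0.455).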

Additional observations from a re-analysis of the deposited data

Results flagged for a closer look

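A library was set apart when its gap to the nearest other, divided by the range of its group of 4 or 5, passed Dixon's 95% value. This happened for 33 of 297 combinations of gene and group. About 1 in 20 would pass for independent, normally distributed values, which these levels need not be. The rate over all genes is not given, so the count is not read as an excess. In Th0 KO 2 the highest levels of 9 genes stood apart, in CPM: Slc2a3 411, Pfkp 958, Aldoc 57.8, Pdk1 225, Bnip3 203, Egln3 243, Ndrg1 100.8, Mxi1 51.7 and Ddit4 115.7. Th1 KO 2 stood apart as the highest for 9 genes, in CPM: Slc2a3 258, Pfkm 46.4, Pfkp 908, Aldoc 60.9, Bnip3 190.1, Egln3 507, P4ha1 151, Ndrg1 162 and Mxi1 77.3. For Treg KO 2 this was so for 4 genes, in CPM: Slc2a3 279, Egln3 186, Vegfa 45.6 and Mxi1 56.9. The glucose transporter gene Slc2a3, the prolyl hydroxylase gene Egln3 and Mxi1, which encodes an antagonist of Myc, were among them in all 3 cultures. The nearest other libraries of these groups had Slc2a3 at 123.1, 57.99 and 74.5 CPM. Th1 KI 3 was the highest for 3 genes, with Slc2a3 62.4, Eno2 32.8 and P4ha1 135.6 CPM, and Treg KI 3 for 3, with Hk1 246, Eno2 11.8 and Hif1a 694 CPM. Treg KO 4 was the lowest for 2, with Gpi1 623 and Pkm 1497 CPM. Single genes stood apart in Th1 WT 4 (Slc2a3 129.8 CPM, highest), Th1 WT 5 (Pdk1 111.98 CPM, lowest) and Th0 WT 5 (P4ha1 77.3 CPM, lowest). Cd8a, a marker of CD8 T cells, was at 20.5 CPM in Th0 KO 2, 21.3 CPM in Th1 KO 2, 73.1 CPM in Treg KO 2, 107.4 CPM in Th1 KI 3 and 318 CPM in Treg KI 3, and its part in these levels was not tested.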

How the results depend on the processing

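Counts of called members were recomputed for 22 contrasts. The share of all genes called is given above for only some of these settings. A changed count is thus not read as particular to the members. For Treg against Th0 in WT the main count of 9 was 5 with no filter, 1 with only the groups compared, 21 with the replicate block and 17 without WT 4, KO 2 and KI 3, and 2 to 14 when leaving out 1 library. In KO the 6 became 15 with the block and 10 without those numbers (4 to 11 leaving out 1 library), and in KI the 5 became 13 and 8 (3 to 9). For Treg against Th1, WT had 10, 2 with only the groups compared, 22 with the block and 18 without those numbers (5 to 19), KO 8 and 15 with the block (7 to 10), and KI 10 and 19 with the block (6 to 11). For Th1 against Th0, WT had 0, 1 by DESeq2, 3 with the block and 1 without those numbers (0 to 2). KO had 1, 0 with no filter, 3 by DESeq2, 5 with only the groups compared, 9 with the block and 4 without those numbers (0 to 6). KI had 2, 0 with no filter, 6 with only the groups compared and 6 with the block (0 to 2). For KO against WT in Treg the count of 2 was 0 with only the groups compared and 4 without those numbers (0 to 3). For KI against WT it was 0, with 1 by DESeq2 in Th1, and 0 to 1 in Th0 and in Th1 when leaving out 1 library. Some settings had fewer libraries or more genes. With only the groups compared, the spread was also taken from those groups alone, where the main fit pooled it over all groups. The SD of the mean log2 level of the members was largest in Treg WT, at 0.74, and smallest in Th1 KI, at 0.11. The cause of the changed counts was not tested further. All other genotype contrasts and differences gave 0 under every alternative run. The direction turned for Ldha in Th1 against Th0 in WT (-0.03; -0.092 to 0.075 leaving out 1 library), at 0.042 and 0.019 without Th0 WT 3 and 4 and 0.014 and 0.075 without Th1 WT 1 and 5, and for Hif1a in KO against WT in Treg (0.18; -0.12 to 0.42), at -0.12 without Treg KO 2. The block was read as a pairing for culture comparisons except Treg against Th0 in KO, and it changed no call between genotypes. Relative log expression scaling moved the median of all genes by at most 0.027. The match to miR-150 seeds was not run.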
